A study of Mus musculus with 17 samples.

Results

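Chromatin accessibility was examined at the genes of the 5 NF-kB subunits, Rel, Rela, Relb, Nfkb1 and Nfkb2, in bone marrow-derived macrophages (BMDMs) of mouse. Every ATAC-seq peak within 20 kb of the 5 gene bodies was collected from 17 deposited peak lists, 1 list per sample. Peaks were ranked inside each list by their p-value, and the best 24389 peaks of every list were kept, the number held by the shortest list. Merging these peaks gave 34165 sites that were present in at least 2 lists genome-wide, and 31 of them lay in the windows of the 5 genes. Of these 31 sites, 14 belonged to Nfkb1, 5 to Nfkb2, 5 to Rela, 4 to Relb and 3 to Rel. Sites overlapping the 1 kb on either side of a transcription start site (TSS) were taken as promoters. Promoters of the NF-kB genes accounted for 6 sites, promoters of neighbouring genes for 5, and the other 20 were distal. The windows also reach the genes Manba, Cuedc2, Fbxl15, Gbf1, Psd, Pus10, Pcnx3, Sipa1, Clasrp and Clptm1.

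ATAC-seq maps open chromatin by the insertion of sequencing adapters by the Tn5 transposase. The cells were grown from bone marrow of male C57Bl6/J mice aged 6 to 12 weeks, for 7 days in L929-conditioned medium. Wild-type (WT) littermates and Nur77-KO mice were compared after 0, 1 and 18 h with 100 ng/ml lipopolysaccharide (LPS), a bacterial cell wall component sensed by Tlr4. The design asks whether loss of Nur77, the nuclear receptor encoded by Nr4a1, alters the chromatin response to LPS. The KO is a whole-body deletion made with a CMV promoter-driven Cre and a floxed Nr4a1 locus, after which the Cre was bred out, so it is not specific to macrophages. The label of the KO samples gives their genotype only as cre. Each group held 3 lists, except WT at 1 h, which held 2, of which 1 is named replicate 1-2. No source says that the replicates came from separate animals, so p-values measure the spread between these samples, which may be technical.

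NF-kB factors are dimers of 5 related proteins. Rel (c-Rel), Rela and Relb carry a transactivation domain, whereas Nfkb1 and Nfkb2 encode precursors that are processed to DNA-binding subunits lacking one. In resting macrophages most dimers are held in the cytoplasm by inhibitors, and Tlr4 signaling degrades these within minutes and lets the dimers reach decameric DNA motifs. Several subunit and inhibitor genes are themselves NF-kB targets, which makes the pathway a textbook case of feedback.

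The lists differed in size, from 24389 to 71456 peak intervals, and no read totals were used, so only ranks were compared between lists. The median peak width was 135 bp in replicate 1 of KO at 18 h and 338 to 661 bp in the other 16 lists, and replicate 1-2 of WT at 1 h was the shortest list. Promoters of 6 of 7 macrophage markers (Csf1r, Adgre1, Itgam, Cd68, Spi1 and Mertk) held a peak in all 17 lists, and Fcgr1 in 15. No list had a peak at the promoters of Cd3e, Cd3g, Cd247, Cd79a, Ebf1 or Pax5, which mark T and B cells. Of 4 neutrophil, 2 dendritic cell, 3 stromal and 2 erythroid markers, Elane, S100a8, Zbtb46, Col1a1 and Klf1 had a promoter peak in 13 to 16 lists and the other 6 in none. Their part in the results was not tested. No deposited peak in any list covered the coding exons of Nr4a1, so the peaks give no check of the deletion.

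The sequences below are those at which the results turn, read from the RefSeq copy of the mouse genome assembly GRCm38.p6 (mm10). Capitals mark matches to the NF-kB decamer on either strand. They come first from the sites of Nfkb1, whose summits lay 51.1 and 20.8 kb downstream of the outermost TSS (chr3:135640324-135640524 and chr3:135670646-135670846, plus strand, both intronic), and from the match beside the Nfkb1 TSS (chr3:135691497-135691526, plus strand).
Nfkb1 intron, +51.1 kb: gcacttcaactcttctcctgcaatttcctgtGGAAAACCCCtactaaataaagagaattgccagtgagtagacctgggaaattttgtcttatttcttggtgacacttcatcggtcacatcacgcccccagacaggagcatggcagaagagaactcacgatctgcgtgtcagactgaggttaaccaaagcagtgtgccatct
Nfkb1 intron, +20.8 kb: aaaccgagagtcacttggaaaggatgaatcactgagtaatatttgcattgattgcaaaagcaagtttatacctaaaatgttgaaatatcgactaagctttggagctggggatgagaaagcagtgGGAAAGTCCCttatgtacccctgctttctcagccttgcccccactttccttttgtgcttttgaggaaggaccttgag
Nfkb1 promoter match: cttcctggctGGAAATTCCCactgacgtcg
The intronic Rel site at +16.5 kb (chr11:23754381-23754581, plus strand) held 2 overlapping matches, as did the 200 bp upstream of the Rel TSS (chr11:23770971-23771170, minus strand). The 200 bp upstream of the outermost Relb TSS (chr7:19629439-19629638, minus strand) held 2 separate matches.
Rel intron, +16.5 kb: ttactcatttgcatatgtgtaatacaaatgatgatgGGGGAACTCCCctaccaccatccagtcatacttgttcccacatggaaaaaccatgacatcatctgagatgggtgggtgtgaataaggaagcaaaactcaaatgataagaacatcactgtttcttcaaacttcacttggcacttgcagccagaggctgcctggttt
Rel upstream: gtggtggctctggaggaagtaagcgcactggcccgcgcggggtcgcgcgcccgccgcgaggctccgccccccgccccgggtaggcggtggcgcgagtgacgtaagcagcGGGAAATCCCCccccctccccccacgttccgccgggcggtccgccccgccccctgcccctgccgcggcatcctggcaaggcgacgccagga
Relb upstream: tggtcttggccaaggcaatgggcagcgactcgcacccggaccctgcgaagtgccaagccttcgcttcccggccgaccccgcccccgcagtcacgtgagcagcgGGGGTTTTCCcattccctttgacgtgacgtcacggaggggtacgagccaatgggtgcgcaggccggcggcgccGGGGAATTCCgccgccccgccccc
For contrast, these are the Rela sites at +11.4 kb (chr19:5648820-5649020, plus strand), which had a peak in all 17 lists, and at -15.3 kb (chr19:5622048-5622248, plus strand), where accessibility was highest at 18 h.
Rela downstream, +11.4 kb: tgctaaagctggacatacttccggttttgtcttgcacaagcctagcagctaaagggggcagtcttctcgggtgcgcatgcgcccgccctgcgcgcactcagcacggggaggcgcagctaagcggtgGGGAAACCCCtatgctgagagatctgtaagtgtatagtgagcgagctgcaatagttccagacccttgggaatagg
Rela upstream site, -15.3 kb: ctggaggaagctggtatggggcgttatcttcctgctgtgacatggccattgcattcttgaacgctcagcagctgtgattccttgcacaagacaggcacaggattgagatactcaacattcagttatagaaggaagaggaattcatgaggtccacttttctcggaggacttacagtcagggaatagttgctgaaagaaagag

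Within 100 bp of the summit, 5 of the 31 sites held the NF-kB decamer, against 4.80% of all 34165 sites. The count was 3 (2.95% of all sites) within 50 bp and 7 (7.97%) within 200 bp. The 5 sites were the Nfkb1 promoter, Nfkb1 +51.1 kb, Nfkb1 +20.8 kb, Rel +16.5 kb and Rela +11.4 kb. In the 200 bp upstream of the outermost TSS it was found at Rel and Relb and not at Rela, Nfkb1 or Nfkb2, against 3.51% of 21938 protein-coding genes. A PU.1 motif (GAGGAAG) lay at 6 of the 31 sites (18.9% of all sites), a C/EBP motif (TTACNNAA or TTGCNNAA) at 4 (17%) and an AP-1 motif (TGACTCA or TGAGTCA) at 1 (16.2%). None of the 31 held the NBRE (AAGGTCA), the monomer motif of Nur77, which was found at 3.49% of all sites, or the interferon response element ISRE, found at 3.61%. The Rela site at -15.3 kb held 1 PU.1 motif and 2 C/EBP motifs. All motifs were sought on both strands, and a match is a description of the letters only.

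Ranks were turned into a rank score, log2((N + 1) / rank) with N = 24389, which is 0 where a list had no peak among its best N and 14.6 for the best peak of a list. A difference of 1 in rank score is a 2-fold difference in rank. Differences were fitted by limma over all 34165 sites, and a site is called at a Benjamini-Hochberg adjusted p under 0.05. In bulk samples, fewer cells with an open site and less opening in each cell cannot be told apart.

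At 1 h of LPS against 0 h, 11 of the 31 sites were called and all 11 were higher, against 27.9% of all sites called in either direction and 13.6% called higher. They comprised all 3 sites of Rel, 7 of 14 at Nfkb1 and 1 of 5 at Nfkb2, and none at Rela or Relb. The median difference over the 31 sites was 0.13, and over all sites -0.03. All 11 differences were positive in WT and in KO taken separately. At 10 of the 31 sites every 1 h list ranked above every 0 h list, which held for 8.55% of all sites. Part of these counts was set by how sites were chosen. Of the 11 sites, 3 (Nfkb1 +51.1, +97.1 and +109.8 kb) had peaks among the best 24389 in 1 h lists alone. Rel +36.6 kb would not have been a site without the 1 h lists. The choice of sites therefore favoured a difference at these 4. Beyond the counts of calls, their differences between times are given as values with no test. Of the 20 sites present in at least 2 lists of 0 or 18 h, 7 were called higher, against 11% of 30976 such sites genome-wide, and 8 had 1 h lists all above the 0 h lists, against 7.65%. Of the 11 called sites, 4 held an NF-kB motif, compared with 1 of the other 20 and 4.80% of all sites. The 4 include Nfkb1 +51.1 kb, which had peaks in 1 h lists alone. The share among sites called genome-wide was not counted, so these numbers are a description only.

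At 18 h against 0 h, 1 of the 31 sites was called, the Rela site at -15.3 kb, against 23.6% of all sites. Every 18 h list ranked it above every 0 h list, which held for 5.45% of all sites. At 18 h against 1 h, 11 sites were called, 10 lower and 1 higher, against 28.8% of all sites, 15.1% lower and 13.7% higher. The lists of these times did not overlap at 6 sites that were lower, against 7.55% of all sites, and at 1 that was higher, against 5.35%. The 10 that fell had all been called higher at 1 h, and 4 of them were the sites that needed the 1 h lists. Of the 20 sites present without the 1 h lists, 6 were called lower at 18 h than at 1 h, against 12.7% of such sites genome-wide, and at 3 the lists did not overlap in that direction, against 6.61%. The remaining site called at 1 h, the internal Nfkb1 promoter at +84.2 kb, had a difference of -0.47 between 18 h and 1 h (95% CI -0.97 to 0.03, adjusted p = 0.148). These LPS comparisons share their 0 h or 1 h lists and are not independent of each other.

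**Figure D1:**
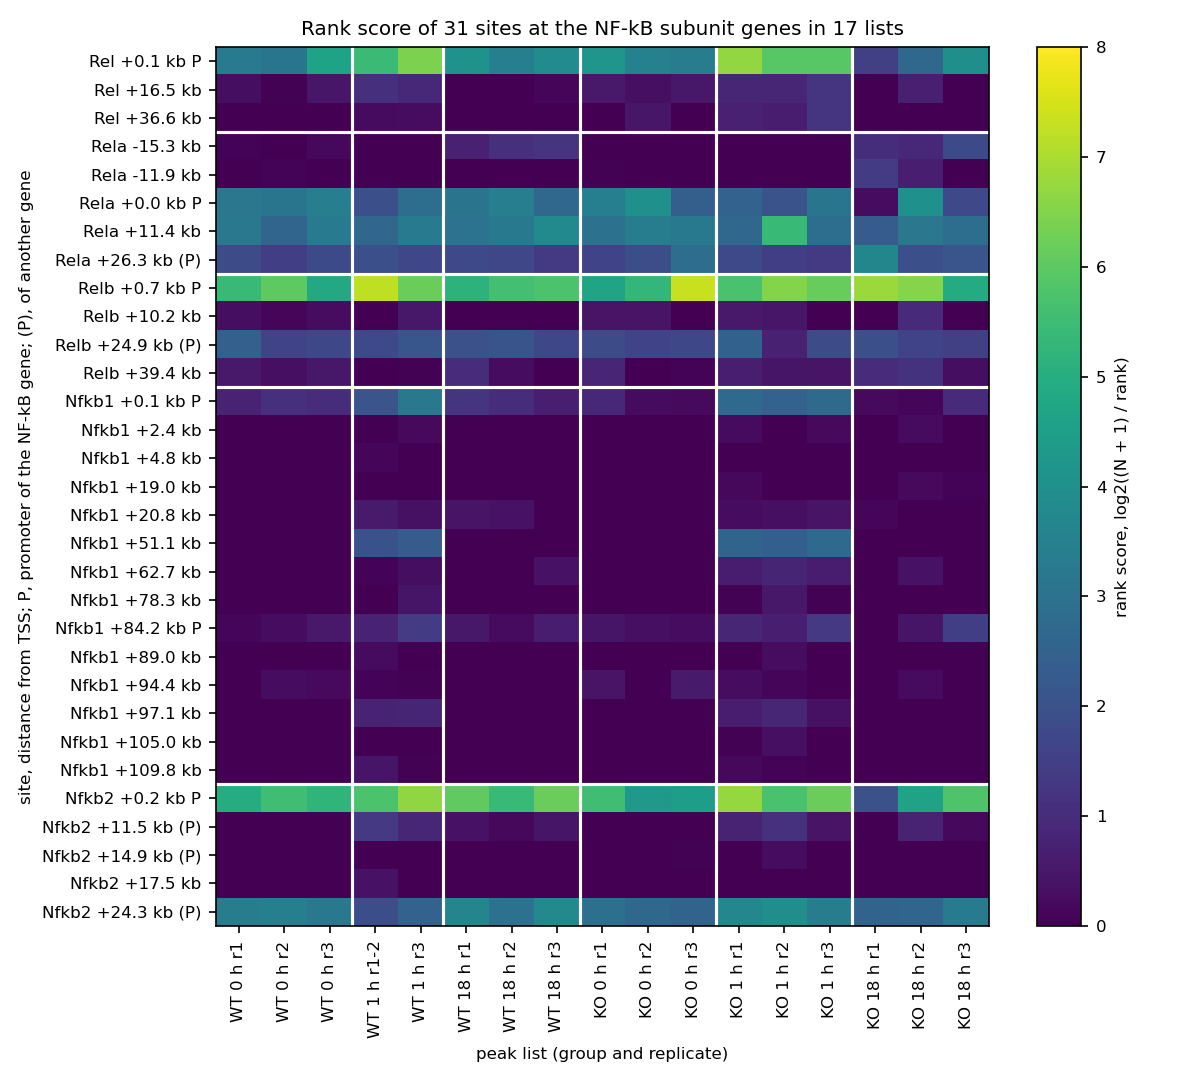
Rank score of each of the 31 sites (rows, grouped by gene and labelled with the distance of the summit from the outermost TSS in kb) in each of the 17 peak lists (columns, by group and replicate), with brighter cells for better ranked peaks and 0 for no peak among the best 24389. The Relb promoter was bright in all 17 lists and the Nfkb2 promoter in all but replicate 1 of KO at 18 h, and the Rel and Nfkb1 promoters and Nfkb1 +51.1 kb were brightest at 1 h.

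**Figure D2:**
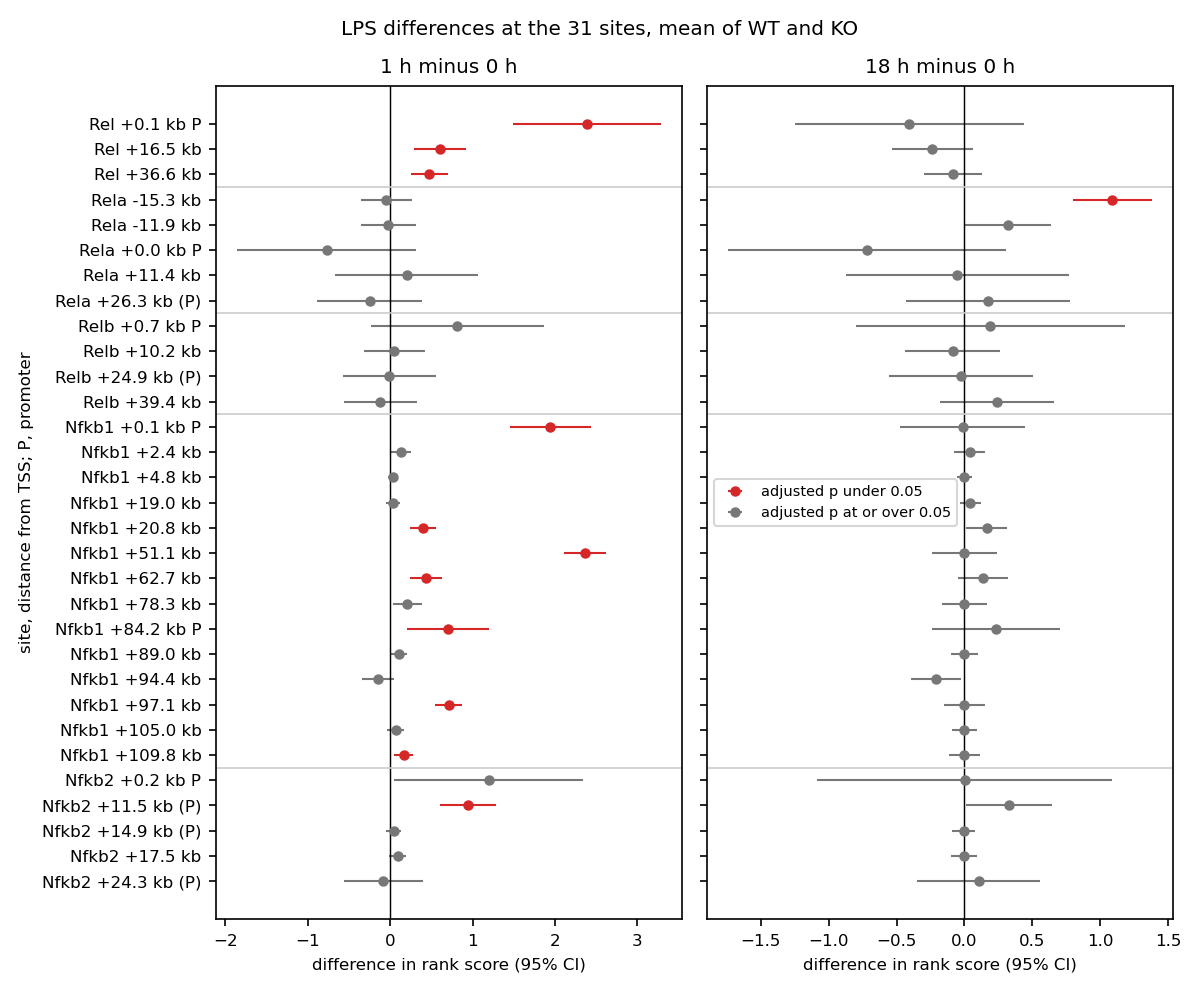
Difference in rank score between 1 h and 0 h (left) and between 18 h and 0 h (right) at the 31 sites, as the mean of WT and KO with its 95% confidence interval and red for an adjusted p under 0.05. The 11 red points at 1 h are all to the right of 0, and at 18 h the only one is the Rela site at -15.3 kb.

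The Rel gene (c-Rel, minus strand, chr11:23736847-23770970) had 3 sites, and all 3 were higher at 1 h. The promoter site covers the TSS. It ranked 2529, 2853 and 987 in the WT lists at 0 h, 556 and 286 at 1 h and 1414, 2204 and 1687 at 18 h. In KO it ranked 1350, 2150 and 2348 at 0 h, 232, 401 and 400 at 1 h and 8451, 3779 and 1557 at 18 h. Every 1 h list thus placed this promoter among its best 556 peaks, above every list of the other times. The rank score rose by 2.39 at 1 h (95% CI 1.49 to 3.28, adjusted p = 0.000553), a 5.23-fold better rank, and was lower by 2.79 at 18 h than at 1 h (adjusted p = 0.000136). On a linear scale of rank percentiles the 1 h difference was 6.78 percentile points and was not called (limma adjusted p = 0.176). Between 18 h and 0 h the difference was -0.40 (95% CI -1.25 to 0.44, adjusted p = 0.510), and -0.10 without replicate 1 of KO at 18 h, where the rank was poorest. With only summits within 250 bp of the site's own summit counted, it was -3.00 and was called (limma adjusted p = 0.000148). That summit lay 53 bp downstream of the TSS. At 18 h the best peak's summit lay outside this range in WT (-220, -278 and -235 bp) and in KO replicate 3 (-230 bp). At 0 h it lay inside in every list, so the value mixes summit position with rank.

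The intronic Rel site at +16.5 kb, which carries the overlapping NF-kB matches shown above, ranked 19831, 23746 and 17326 in WT at 0 h and 11586 and 13170 at 1 h. In KO it ranked 16541, 19322 and 17096 at 0 h and 13517, 13507 and 10340 at 1 h. At 18 h it was outside the best 24389 in 4 of 6 lists, the others being WT replicate 3 (22369) and KO replicate 2 (15083). The difference was 0.61 at 1 h (95% CI 0.29 to 0.92, adjusted p = 0.00621), with no overlap between the 1 h and 0 h lists, and -0.84 at 18 h against 1 h (adjusted p = 0.000501). The site at +36.6 kb lies beyond the 3′ end of the gene. It ranked 20675 and 20494 in WT and 14643, 15661 and 10434 in KO at 1 h. At 0 h it was among the best 24389 only in KO replicate 2 (17372), and at 18 h in no list. Its score differed by 0.47 between 1 h and 0 h.

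Rela, the most widely used partner in canonical NF-kB dimers, lies on chr19:5637483-5648130 (plus strand) and had 5 sites, none of which was called at 1 h. Its promoter ranked 2712, 2854 and 2275 in WT at 0 h, 6311 and 3262 at 1 h and 2863, 2272 and 3708 at 18 h. In KO the ranks were 2237, 1504 and 4540 at 0 h, 4305, 5905 and 2811 at 1 h and 20089, 1517 and 7166 at 18 h. The lists of the 3 times overlapped. The difference was -0.77 at 1 h (95% CI -1.86 to 0.31, adjusted p = 0.288) and -0.72 at 18 h (95% CI -1.74 to 0.31, adjusted p = 0.317). Without replicate 2 of KO at 18 h, which had the best rank of that time, the 18 h difference was -1.21 with an adjusted p of 0.0193. Without replicate 1 of KO at 18 h, which had the poorest rank of that time (20089), it was -0.28.

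The site at -15.3 kb, upstream of Rela and 11911 bp from the TSS of Kat5, was the site called at 18 h. It ranked 14727, 11606 and 10471 in WT and 11794, 12801 and 6994 in KO at 18 h. At 0 h it was among the best 24389 in WT replicates 1 (22992) and 3 (21619) and KO replicate 2 (24098), and at 1 h in no list. All 6 lists at 18 h thus ranked it above all 11 others. The score rose by 1.09 against 0 h (95% CI 0.80 to 1.38, adjusted p = 4.48e-05) and by 1.13 against 1 h (adjusted p = 3.08e-05). With only the best 10000 peaks of each list, both differences were 0.086 and neither was called (adjusted p of 0.495 and 0.438). The neighbouring site at -11.9 kb was among the best 24389 at 18 h only in KO replicates 1 (9361) and 2 (15260), with a difference of 0.32 (95% CI 0.0021 to 0.64, adjusted p = 0.141) that was 0.49 with an adjusted p of 0.00142 without replicate 3 of KO at 18 h.

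The best ranked distal site of Rela, +11.4 kb from the TSS and just past the gene end, had a peak in all 17 lists. Its ranks were 2642, 4013 and 2406 in WT and 3008, 2343 and 2575 in KO at 0 h. They were 3874 and 2418 in WT and 3736, 581 and 3268 in KO at 1 h, and 1712 to 4848 at 18 h. This site carries an NF-kB match but its lists overlapped between times, with a difference of 0.20 at 1 h (95% CI -0.67 to 1.07, adjusted p = 0.801). The promoter of Sipa1 at +26.3 kb ranked between 1903 and 9548 and was called in no comparison.

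Relb, the subunit of the non-canonical pathway, lies on chr7:19606217-19629438 (minus strand), and none of its 4 sites was called in any comparison. Its promoter had the best ranked peak of the 5 genes. The summit lay 650 bp inside the outermost transcript and 315 bp upstream of a second annotated TSS. Its ranks were 563, 373 and 851 in WT and 962, 616 and 151 in KO at 0 h, 163 and 330 in WT and 473, 265 and 348 in KO at 1 h, and 678, 503 and 456 in WT and 220, 263 and 811 in KO at 18 h. Every list placed it among its best 962 peaks. The difference at 1 h was 0.81 (95% CI -0.24 to 1.86, adjusted p = 0.244), and 1.20 with an adjusted p of 0.0477 without replicate 3 of KO at 0 h, which ranked it best.

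The other Relb sites were the Clasrp promoter at +24.9 kb, an intronic site at +10.2 kb and a site in Clasrp at +39.4 kb. The Clasrp promoter ranked from 4397 to 14606 over the 17 lists and differed by -0.011 at 1 h. The site at +39.4 kb had differences of -0.12 at 1 h (adjusted p = 0.751) and 0.24 at 18 h (adjusted p = 0.419).

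Nfkb1 is the longest of the genes (106893 bp, chr3:135584655-135691547, minus strand), and 12 of its 14 sites were distal. Its promoter ranked 13929, 11282 and 11968 in WT at 0 h, 5690 and 2674 at 1 h and 10509, 11780 and 15327 at 18 h. In KO it ranked 13088, 20697 and 21107 at 0 h, 3657, 4225 and 3607 at 1 h and 21055, 22676 and 12587 at 18 h. The 1 h lists stood clear of all others. The score rose by 1.94 at 1 h (95% CI 1.45 to 2.44, adjusted p = 1.55e-05), a 3.85-fold better rank, fell by 1.96 from 1 h to 18 h (adjusted p = 1.45e-05), and differed by -0.014 between 18 h and 0 h (95% CI -0.48 to 0.45).

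The intronic Nfkb1 site at +51.1 kb was seen only after LPS. No list at 0 h had a deposited peak there at any rank. At 1 h it ranked 5998 and 4983 in WT and 4103, 4654 and 3676 in KO. At 18 h weak peaks remained in WT replicates 1 (51103) and 2 (39369) and KO replicate 1 (30720), all outside the best 24389. A site with no peak in any resting list was therefore within the best 5998 of every list at 1 h, and this held in both genotypes. The score differed by 2.36 between 1 h and 0 h and was 0 in all 6 lists at 18 h. Since the 0 h score is a floor, this difference depends on N, and with all deposited intervals ranked it was 3.91.

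The other Nfkb1 sites that were higher at 1 h had smaller differences. At +97.1 kb the ranks at 1 h were 14464 and 13595 in WT and 15944, 13312 and 18963 in KO, with no list of 0 h or 18 h inside the best 24389 (difference 0.71). At +62.7 kb they were 22937 and 19830 in WT and 16138, 13705 and 15966 in KO, again with none at 0 h (difference 0.44, 95% CI 0.24 to 0.63, adjusted p = 0.00222). The +62.7 kb site was also called lower at 18 h than at 1 h, a call that was lost without replicate 3 of WT at 1 h or replicate 1 or 2 of WT at 18 h (adjusted p of 0.0956, 0.0574 and 0.0586). At +20.8 kb, where an NF-kB match lies, ranks at 1 h were 16272 and 19115 in WT and 20149, 19533 and 18300 in KO. No 0 h list had it among the best 24389, and all 3 WT lists at 18 h did (18106, 18435 and 23894), along with KO replicate 1 (22571). The difference was 0.40 at 1 h (adjusted p = 0.000813), 0.16 at 18 h (adjusted p = 0.109) and -0.24 at 18 h against 1 h, a call that was lost without replicate 1-2 of WT at 1 h (adjusted p = 0.109).

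The internal promoter at +84.2 kb ranked 22462, 20432 and 16805 in WT and 17893, 19494 and 20226 in KO at 0 h, and 14353 and 9009 in WT and 13436, 15226 and 9683 in KO at 1 h. The lists of the 2 times did not overlap, and the difference was 0.70 (95% CI 0.21 to 1.20, adjusted p = 0.0348). The call was lost without replicates 1, 2 or 3 of KO at 0 h, 1 or 3 of KO at 1 h, 1 or 2 of WT at 0 h or 3 of WT at 1 h, each left out alone, with differences of 0.54 to 0.73. At +109.8 kb, past the 3′ end of the gene, the difference was 0.16, with a value of 0.061 without replicate 1-2 of WT at 1 h. The 7 remaining Nfkb1 sites differed by -0.15 to 0.21 at 1 h.

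**Figure D3:**
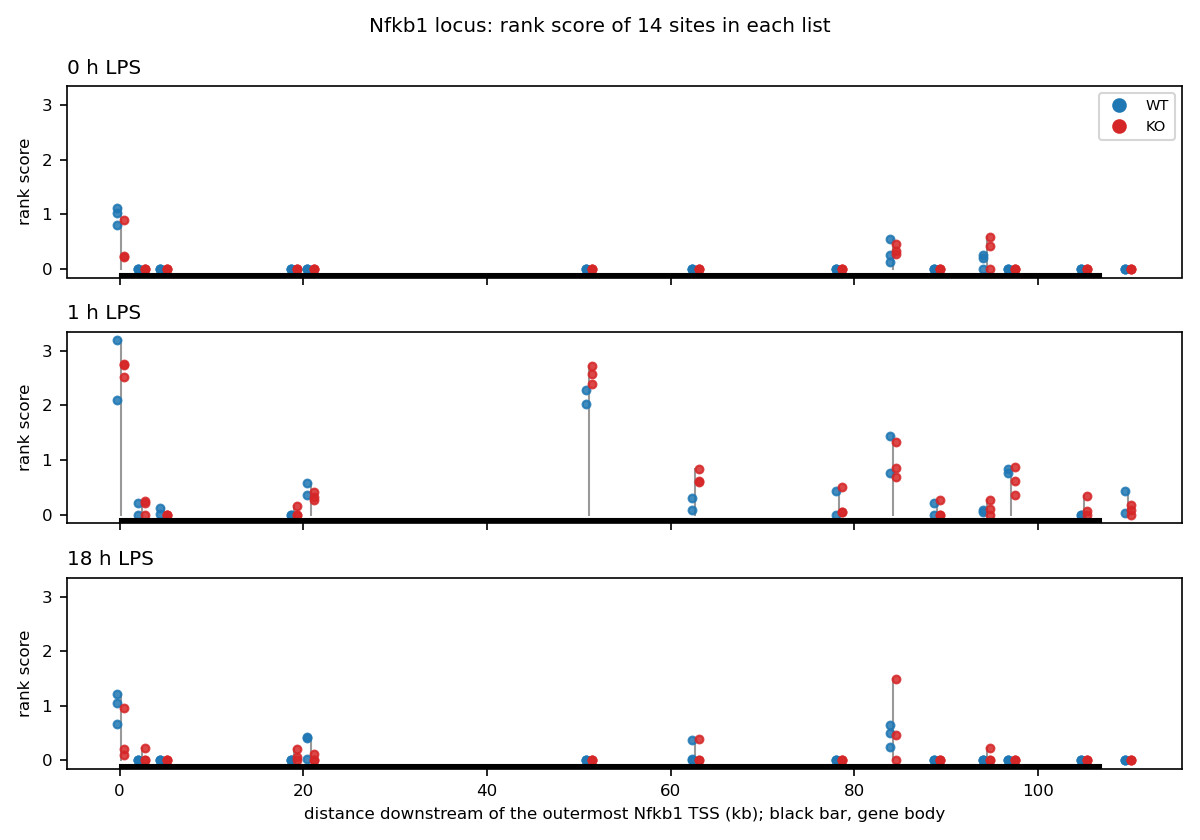
Rank score of the 14 Nfkb1 sites in each list (points; WT blue, KO red) against the distance of the site downstream of the outermost TSS in kb, at 0, 1 and 18 h of LPS, with the gene body as a black bar and grey lines up to the highest list. The promoter and the intronic site at +51.1 kb were tallest at 1 h, the latter with scores of 0 in every list at 0 and 18 h.

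Nfkb2, on chr19:46304320-46312385 (plus strand), encodes the precursor that is processed in the non-canonical pathway. Its promoter ranked 786, 524 and 641 in WT at 0 h, 460 and 237 at 1 h and 367, 569 and 340 at 18 h. In KO it ranked 522, 1222 and 1122 at 0 h, 231, 471 and 337 at 1 h and 6119, 997 and 434 at 18 h. Every 1 h list ranked it above every 0 h list. The difference of 1.19 (95% CI 0.04 to 2.34) nevertheless had an adjusted p of 0.115 by limma. Without replicate 1 of KO at 18 h, whose rank of 6119 stood apart from the other 16 lists, the adjusted p was 0.0146, and the exact permutation test, applied to all sites, gave 0.0274. At 18 h the difference from 0 h was 0.0012 with that list and 0.54 without it (adjusted p = 0.276).

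The site at +11.5 kb of Nfkb2 lies in an intron of the neighbouring gene Psd, so its peak cannot be assigned to Nfkb2 from these data. It ranked 9703 and 13386 in WT and 13985, 11035 and 18253 in KO at 1 h, and was among the best 24389 in no list at 0 h. At 18 h it ranked between 13976 and 21812 in 5 of 6 lists. The score rose by 0.94 at 1 h (95% CI 0.61 to 1.28, adjusted p = 0.000363) and was lower by 0.61 at 18 h than at 1 h, a call lost without replicate 1-2 of WT at 1 h (adjusted p = 0.0530). With only summits within 250 bp counted, the 1 h difference was 0.45 and was not called (adjusted p = 0.0929). The exact permutation test did not call the difference between 18 h and 1 h (adjusted p = 0.102). The only distal site of Nfkb2, at +17.5 kb, was among the best 24389 in 2 lists.

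Across all 17 lists, the order of the promoters by mean rank score was Relb (5.89 ± 0.81, SD over 17 lists), Nfkb2 (5.36 ± 1.12), Rel (4.24 ± 1.42), Rela (2.79 ± 0.92), the main Nfkb1 promoter (1.28 ± 1.00) and the internal Nfkb1 promoter (0.61 ± 0.45). Relb stood above Nfkb2 in 9 of 17 lists, so this pair did not differ beyond its spread. Nfkb2 stood above Rel in 16 lists, Rel above Rela in 15 and Rela above Nfkb1 in 13. For the last pair, Rela stood above Nfkb1 in 6 of 6 lists at 0 h and at 18 h but in 1 of 5 at 1 h. This is a description of peak ranks, which depend on peak height against background and do not measure transcription.

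**Figure D4:**
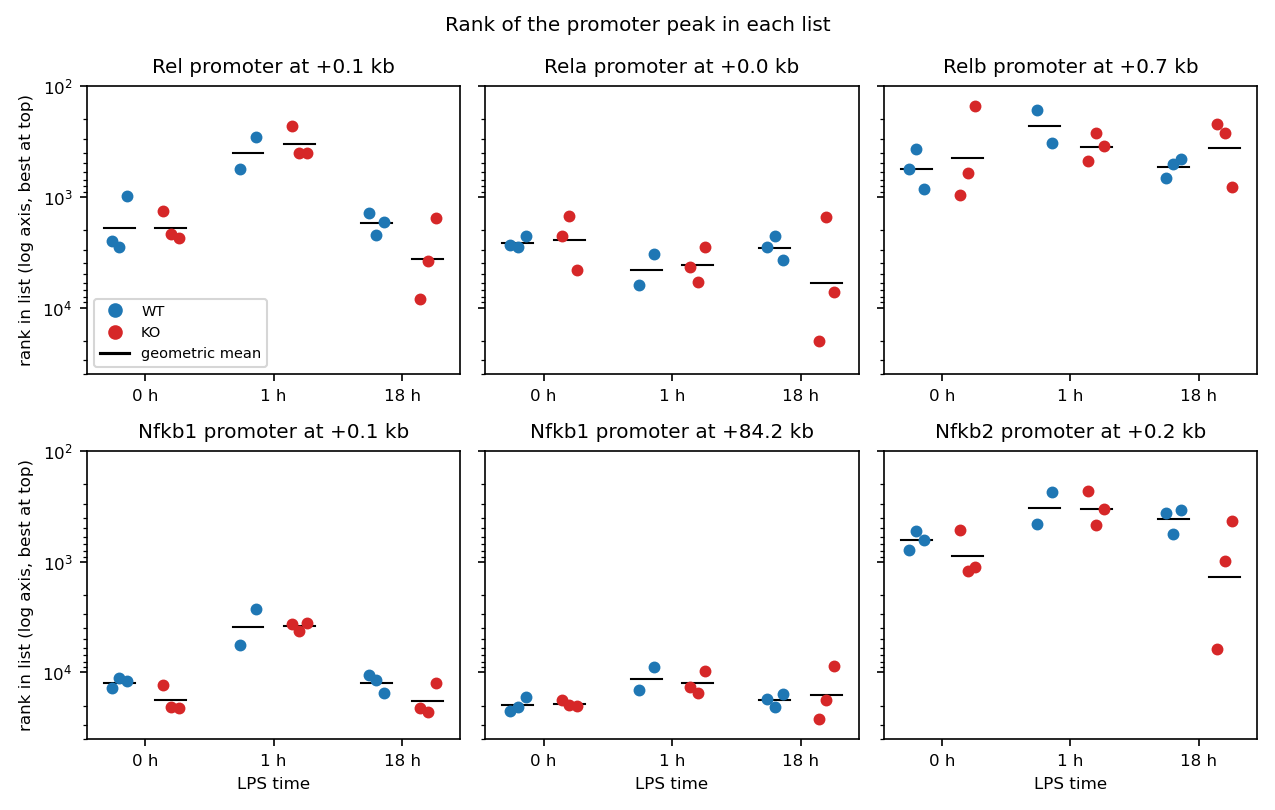
Rank of each NF-kB gene promoter peak (log axis, best rank at the top) in every list, by LPS time, for WT (blue) and KO (red), with the geometric mean of each group as a bar. The Rel and main Nfkb1 promoters ranked best at 1 h in both genotypes, and the lowest points at 18 h for Rel, Rela and Nfkb2 (8451, 20089 and 6119) belong to replicate 1 of KO.

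The number of peaks in a window gave a second measure of the response. Among the best 24389 peaks, the Nfkb1 window held 2.67 ± 0.58 (SD, n = 3) in WT and 3 in every KO list at 0 h. At 1 h it held 16 and 11 in WT and 12, 13 and 10 in KO, and at 18 h 3.67 ± 0.58 in WT and 4.33 ± 2.52 in KO (n = 3 each). The 1 h lists did not overlap those at 0 or 18 h. The difference of 9.75 peaks between 1 h and 0 h had an exact two-sided permutation p of 0.005, the smallest the design allows (adjusted p = 0.025 over 15 tests of 5 genes and 3 contrasts). Between 1 h and 18 h the number in the Nfkb1 window fell by 8.58 and that in the Rel window by 1.17 (exact permutation adjusted p = 0.025 for each). Base pairs under these peaks went from 3108 to 4878 in WT and 1665 to 4266 in KO at 0 h to 4644 to 11635 in WT and 7978 to 23255 in KO at 1 h.

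The Rel window gained 0.83 peaks at 1 h, with 3 in each of the 5 lists (exact permutation adjusted p = 0.0429), and the Nfkb2 window gained 2.58 (exact adjusted p = 0.0429). The Nfkb2 value rested on replicate 1-2 of WT at 1 h, with 9 peaks against 4 or 5 in the other 1 h lists and 2 to 4 at 0 h, and without it the gain was 1.33 (exact adjusted p = 0.225). In the Rela window the number fell by 1.5 at 1 h (exact adjusted p = 0.0429), from 5 in each WT list at 0 h to 3 in both at 1 h and from 5, 5 and 4 in KO to 3, 4 and 4, so that the KO lists overlapped. It was higher by 1.83 at 18 h than at 1 h (exact adjusted p = 0.0375). No difference passed for Relb (exact adjusted p of 0.39 to 1). With 1 list left out, the 1 h difference passed in 11 of 17 cases for Nfkb1, 7 for Rel, 6 for Nfkb2 and 7 for Rela, where fewer lists also raise the smallest possible p. Over the 15936 windows of protein-coding genes that held a peak, 7.34% gained and 9.89% lost peaks at 1 h at an unadjusted exact permutation p under 0.05, and 3 and 1 of the 5 NF-kB windows did. From 1 h to 18 h, 7.75% gained and 7.07% lost peaks by the same rule, and 1 and 2 of the 5 did. These tests were added after the data were seen.

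**Figure D5:**
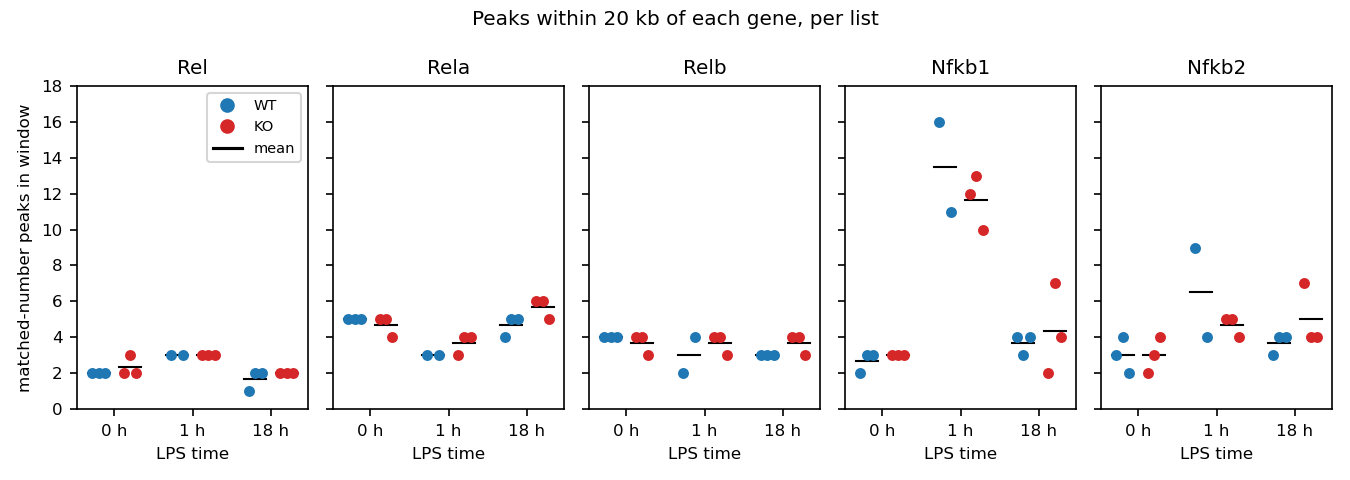
Number of peaks among the best 24389 of each list within 20 kb of each gene, for WT (blue) and KO (red) by LPS time, with the group mean as a bar. The Nfkb1 window held 10 to 16 peaks in the 1 h lists and 2 to 7 in all others, and the Rela window held fewer at 1 h.

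None of the 31 sites was called between KO and WT over the 3 LPS times (limma, 0.565% of all sites called), and at none did all KO lists rank above or all below the WT lists (0.0995% of all sites). Differences ranged from -0.74 to 0.37. At an unadjusted p under 0.05 there were 3 of 31 by limma, where 9.81% of all sites passed, and 0 by the exact permutation test, where 6.95% did. The widest difference, -0.74 at the Nfkb2 promoter (95% CI -1.66 to 0.18), was -0.39 without replicate 1 of KO at 18 h. At the Rel promoter the difference was -0.27 (95% CI -0.98 to 0.45), at Relb 0.10 (95% CI -0.74 to 0.94), at Rela -0.29 (95% CI -1.16 to 0.58) and at Nfkb1 -0.35 (95% CI -0.75 to 0.04). These intervals do not show that the genotypes were alike. Without replicate 3 of WT at 1 h, 2 sites of low rank were called lower in KO, Nfkb1 +109.8 kb (-0.12) and Nfkb2 +17.5 kb (-0.13). That group was then 1 list, replicate 1-2, which was assumed to vary like the other groups, so both calls rest on the value of that list. Taken at each time, KO minus WT ranged from -0.61 to 0.42 at 0 h, from -0.60 to 1.45 at 1 h and from -1.74 to 0.97 at 18 h, and none was called by limma. At an unadjusted p under 0.05 there were 0, 5 and 5 of 31, against 4.39%, 10.8% and 13.2% of all sites. The smallest adjusted p was 0.0506, at Nfkb2 +24.3 kb at 1 h (1.45, 95% CI 0.73 to 2.16), and the widest difference at 18 h was that of the Nfkb2 promoter. There, replicate 1 of KO ranked it 6119, against 997 and 434 in the other KO lists. At the Sipa1 promoter, which had the highest difference at 18 h, replicate 1 of KO also stood apart (1903 against 6328 and 5606).

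The response to LPS at 1 h did not pass the test for a difference between KO and WT at any of the 31 sites by limma (0.266% of all sites called). At an unadjusted p under 0.05 there were 3 of 31 by limma and 1 by the exact permutation test, against 7.13% and 3.59% of all sites. By genotype, 8 sites were called at 1 h in WT and 9 in KO, against 14.4% and 15.7% of all sites, and 7 were called in both. At 1 of these 7 the signs were opposite, the promoter of Fbxl15 and Psd at +24.3 kb of Nfkb2, which was called lower in WT (-1.12, adjusted p = 0.0362) and higher in KO (0.94, adjusted p = 0.0443). It ranked 2330, 2232 and 2672 in WT at 0 h and 6370 and 4258 at 1 h, but 3131, 3833 and 4141 in KO at 0 h and 1863, 1581 and 2370 at 1 h. The KO response exceeded the WT response by 2.06 (95% CI 1.10 to 3.02, adjusted p = 0.0859), and by 2.35 with an adjusted p of 0.0123 without replicate 3 of WT at 1 h, when that group was again 1 list. With only summits within 250 bp counted, the differences were 1.13 in WT and -0.14 in KO, neither called (adjusted p of 0.678 and 1), and that between them was -1.27, so the signs depended on how this 4034 bp wide site was read.

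At Nfkb1 +51.1 kb the 1 h response was larger in KO by 0.41 (95% CI -0.10 to 0.91, adjusted p = 0.790), at the Nfkb1 promoter by 0.56 (95% CI -0.42 to 1.55, adjusted p = 0.905) and at the Rel promoter by 0.24 (95% CI -1.55 to 2.02). At 18 h, none of the 31 responses was called between genotypes by limma (0.0439% of all sites called), with 1 of 31 at an unadjusted p under 0.05 by limma (6.54% of all sites) and 0 by the exact test (3.60%). Without replicate 3 of KO at 18 h, 1 site was called, Rela -11.9 kb (1.04).

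Summit positions were compared at the 9 sites with a peak in every list. The Nfkb1 summit lay 29 to 90 bp downstream of the TSS in all 17 lists. The Rel summit lay at -117, -79 and -147 bp from the TSS in WT at 0 h and at -220, -278 and -235 bp in WT at 18 h. In KO at 18 h it lay at 182, 40 and -230 bp. The Nfkb2 summit lay 142 to 170 bp downstream at 0 h and 166 to 376 bp downstream at 1 h (mean shift 143.5 bp). The Rela summit moved by -56.1 bp at 1 h. None of 18 such tests passed adjustment (smallest exact permutation adjusted p = 0.09), and they were added after the data were seen.

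The pathway around the subunits was described by a list of 25 genes with 115 sites. At 1 h, 27 sites were higher and 14 lower, and 74 were not called, against 13.6% and 14.3% of all sites. Inhibitor and feedback genes had 17 higher and 1 lower of 46 (median difference 0.22, against -0.03 over all sites), receptors and adaptors 8 and 3 of 31, and kinases 2 and 10 of 38. Among the pathway sites present in at least 2 lists of 0 or 18 h, 23 of 102 were higher, against 11% of such sites genome-wide, of which 14 of 38 were at inhibitor and feedback genes, 7 of 29 at receptors and adaptors and 2 of 35 at kinases. The widest differences at 1 h were at the promoters of Nfkbia, the main cytoplasmic inhibitor (4.28, adjusted p = 1.24e-05), Birc3, a ubiquitin ligase of receptor complexes (2.93, adjusted p = 7.28e-07), and Tnfaip3, a ubiquitin-editing inhibitor (2.91, adjusted p = 5.45e-06). The Nfkbia and Tnfaip3 sites are wide (chr12:55482731-55493792 and chr10:19006074-19016064), so their best peak need not lie at the TSS. At 18 h, 17 of the 115 were higher and 4 lower, against 10.8% and 12.8% of all sites. Birc3 was still higher (2.71, adjusted p = 2.36e-06), a site of Tnip1, which binds the Tnfaip3 protein, rose by 2.45 (adjusted p = 2.74e-05), and a site of the adaptor Myd88 fell by 1.90 (adjusted p = 0.0231). None of the 115 was called between KO and WT by limma.

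Among 11053 promoter sites, those whose rank score followed the Nfkb1 promoter most closely over the 17 lists were Sdc4 (r = 0.94), Nfkbiz (0.94) and Dph5 (0.94). For Rel they were Noct (0.94), Itpkc (0.92) and Nfkb1 (0.92). For Nfkb2 they were Efhd2, Rcbtb2 and Larp1 (0.89 to 0.92), for Rela the shared promoter of Mbtd1 and Utp18, Rpl39 and Sash1 (0.91 to 0.94), and for Relb Alg10b, Pold2 and Tbc1d31 (0.81 to 0.91). These correlations share the same lists and LPS times, and they are given as a description.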

How the data were processed

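ATAC-seq was done on 17 BMDM samples, and each has 1 deposited narrowPeak list. The authors trimmed reads (cutadapt 2.6 per the labels), aligned them to mm10 and called peaks per sample with the snakeATAC pipeline, and their processing notes also name DiffBind 3.0.15. The deposited columns used hold the fold enrichment (a linear ratio) and the -log10 p-value and -log10 q-value of each peak as the authors' peak caller gave them. No sample column was left unused, and no read counts were used, so depth is known only as the number of peaks (24389 to 71456 intervals after entries with the same interval were reduced to their best summit).

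Within each list, intervals were ranked by -log10 p-value, with ties broken at random (seed 1). Between 1.05% and 16.9% of a list's best 24389 peaks were tied at its last rank. The best 24389 of each list were merged, and sites present in at least 2 lists were kept. Rank scores were fitted with limma 3.58.1 (R 4.3.3, 6 group means, mean-variance trend, 11 residual degrees of freedom), and p-values were adjusted over 34165 sites. Exact permutation tests regrouped lists within genotype or within time, and for KO against WT the smallest possible p was 0.00025. The scripts were tested on simulated data. Coordinates are mm10. Tables and motifs were handled in Python 3.11.15.

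The members, gene lists and tests were chosen with earlier results of these data known. One of the marker genes is not reported here. Named sites are the promoters of the 5 genes, all other sites called in a comparison, the best distal site of each gene, the 3 pathway sites with the largest called differences at 1 h and at 18 h, and the 3 promoters most correlated with each gene. Alternatives covered the test, the number of peaks, ties, the definition of a site, the scale, the variance trend, peak number as a covariate, a replicate block, the window and each list left out. Leaving out replicate 1 of KO at 18 h and replicate 1-2 of WT at 1 h together, the tests of peak number and those of summit position were added after seeing the data.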

Additional observations from a re-analysis of the deposited data

How the results depend on the processing

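At 1 h against 0 h, the 11 called sites became 3 with only the best 10000 peaks of each list, 6 among sites with a peak in at least 9 lists and 9 to 13 with 1 list left out, and 15 with all deposited intervals. At 18 h against 0 h, the 1 call became 0 with the best 10000, 8 with all deposited intervals, 2 with summits within 250 bp and 1 to 3 with 1 list left out. At 18 h against 1 h, the 11 calls became 7 by the exact permutation test, 3 with the best 10000, 5 among sites in at least 9 lists, 13 with all deposited intervals and 9 to 13 with 1 list left out. KO against WT gave 1 call with summits within 250 bp and 0 to 2 with 1 list left out. The response at 1 h gave 1 call with the best 10000, 1 with summits within 250 bp and 0 to 3 with 1 list left out, and that at 18 h 0 to 1. Without both replicate 1 of KO at 18 h and replicate 1-2 of WT at 1 h, chosen after seeing the data, 13 sites were called at 1 h and 2 at 18 h. With a window of 50 kb, 13 of 50 sites were higher and 2 lower at 1 h and 3 were called at 18 h, and with 10 kb 11 of 26 were higher at 1 h and 0 were called at 18 h. The cause of these shifts was not tested, except that stricter site sets hold fewer of the 31 sites.

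Of the called differences, signs turned at Nfkb2 +24.3 kb at 1 h in WT (1.13) and in KO (-0.14), with summits within 250 bp. The KO value was called in 8 of 17 fits with 1 list left out and the WT value in 13. The other signs that turned were of differences that were not called. For KO against WT these were the internal Nfkb1 promoter (-0.11 to 0.14 with 1 list left out), the main Nfkb1 promoter (0.010 with the best 10000), Relb (-0.25 with peak number as a covariate, -0.16 to 0.30 with 1 list left out), Rel (0.55 with summits within 250 bp) and Rela (-0.62 to 0.0022). For 18 h against 0 h they were Nfkb1 (0.19 with the covariate, -0.15 to 0.10, and 0.04 without both lists), Relb (-0.29 with the covariate, -0.088 to 0.58) and Nfkb2 (-2.74 percentile points on a linear scale, -0.42 to 0.54). The 1 h response at Nfkb2 +24.3 kb was -1.27 with summits within 250 bp. Under that setting the Rel promoter at 18 h differed by -3.00 from 0 h (limma adjusted p = 0.000148), a call that was absent otherwise. It mixes summit position with rank, since the best summits of all 3 WT lists at 18 h lay outside the 250 bp. With all deposited intervals, Rela -15.3 kb and -11.9 kb were also called lower at 1 h, the latter by -1.34.

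Among the named calls, the exact permutation test also did not call the 18 h against 1 h differences at Nfkb1 +62.7 kb and +20.8 kb (adjusted p of 0.184 and 0.117). At Nfkb1 +109.8 kb the 1 h difference was 0.061 to 0.26 with 1 list left out, given as a value only. The 1 h call at Nfkb2 +11.5 kb was lost with the best 10000 (0.011) and its 18 h against 1 h call with the best 10000, all deposited intervals and summits within 250 bp. The internal Nfkb1 promoter lost its 1 h call with the best 10000 (0.045), all deposited intervals (adjusted p = 0.0553) and the covariate (adjusted p = 0.0510). The 18 h against 1 h call at Nfkb1 +62.7 kb was also lost with all deposited intervals (-0.62, limma adjusted p = 0.155). That at Nfkb1 +20.8 kb was lost among sites with a peak in at least 9 lists (limma adjusted p = 0.0656). Leaving out either list of WT at 1 h left that group with 1 list, assumed to vary like the others.

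Replicate numbers were shared by groups but did not pair the lists. Same-numbered lists had a mean correlation of deviations of -0.017 over 35 pairs, of which 4 were over 0.1. With a replicate block, 9 sites were called at 1 h against 0 h, 1 at 18 h against 0 h, 9 at 18 h against 1 h and 0 in the other comparisons. The 1 h calls lost with the block were Rel +16.5 kb (0.52, adjusted p = 0.0677), the internal Nfkb1 promoter and Nfkb1 +109.8 kb. The 18 h against 1 h calls lost were Nfkb1 +109.8 kb, Nfkb1 +20.8 kb and Nfkb2 +11.5 kb, and Nfkb1 +78.3 kb was gained in both. Peak ranks limit what can be seen, since sites outside the best 24389 share a score of 0.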
